A study of Solanum lycopersicum x Solanum pennellii and Solanum lycopersicum with 21 samples.

Results

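HY5 is a basic leucine zipper (bZIP) transcription factor, a protein that binds DNA as a dimer and switches on genes of the light response. On the tomato array it was measured by 1 probe set (symbol HY5, Entrez gene 543733) of 10101 probe sets tested. The gene was chosen because its level set 1 of the groups apart, so its levels and differences are given below as a description and carry no test. The values are log2 signals, on which a difference of 1 is a change of 2-fold, and errors beside levels are SD over arrays.

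RNA came from anthers, the pollen-bearing organs, taken 1 day before the flowers opened from plants kept in a climate-controlled greenhouse. The control group was the domesticated tomato M82, labelled as the parental line, with 6 arrays. The 4 other groups were introgression lines from a cross of this tomato with the wild relative Solanum pennellii. These were IL-1_1_3 (3 arrays), IL-4_2 (4 arrays), IL-7_2 (4 arrays) and IL-8_1_1 (4 arrays), and the line and description fields shorten 2 of these names, to IL-1_1 and IL-8_1. No treatment differed between the groups. Titles of the M82 arrays speak of pollen, while the source field names anthers for all 21. In lines of this kind most of the genome is that of the domesticated parent and the first number of the name is, by convention, the chromosome that carries the wild segment. The place of HY5 in the genome was not analysed here. The design text speaks of hybrids, and the number of copies of the wild segment in a line is not stated. Nothing states whether the arrays of a group came from separate plants, so the spread between arrays may be technical.

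In Arabidopsis, HY5 accumulates in light and is degraded in darkness after the E3 ubiquitin ligase COP1 marks it. Phytochromes, which sense red and far-red light, and cryptochromes, which sense blue light, hold COP1 back, and a second complex built on CUL4, DDB1 and DET1 works in the same repressive arm. HY5 then acts on genes of chlorophyll and photosynthesis, carotenoids and flavonoids. In tomato, lowering HY5 reduces pigment in leaves and fruit, whereas loss of DDB1 or DET1 function gives the high pigment mutants.

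The arrays of a group correlated with each other at 0.925 to 0.998 over all probe sets, and array 2 of IL-7_2 stood furthest from its own group (median correlation 0.930). The pollen list fixed as a check of the tissue (LAT61, PRK1, PRK2, PRK3, Shy and Stig1) had a mean log2 level of 9.78 to 10.59 on the M82 arrays and 9.46 to 11.60 on those of the lines. Stig1, which is named for the stigma and not for pollen, lay between 4.09 and 5.29 on all arrays but array 2 of IL-8_1_1. There it was 8.86, and the list mean of 11.60 is that of the same array. The lipid transfer protein gene ltpg1, the sole marker of the anther wall list found by symbol, lay between 11.54 and 13.22. In whole anthers, fewer cells that make a transcript and less transcript per cell cannot be told apart.

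HY5 was low in 1 line, IL-8_1_1, and at about the same level in the other 4 groups. In M82 its level ran from 9.57 through a median of 9.79 to 9.99 over the 6 arrays, with a mean of 9.78 ± 0.15 (n = 6). In IL-8_1_1 it was 7.29, 7.25, 7.34 and 7.91 on arrays 1 to 4 (mean 7.45 ± 0.31, n = 4). All 4 of these arrays lay below every other array of the series, and the highest of them was 1.66 below the lowest of the remaining 17, a gap of 3.16-fold. The difference of the means was -2.34, which makes HY5 5.05 times lower in IL-8_1_1 than in M82. Against the other lines it was 6.15 times lower than in IL-1_1_3, 5.81 times lower than in IL-4_2 and 5.12 times lower than in IL-7_2. A lower amount of the transcript and a weaker binding of a wild transcript to a probe designed on the domesticated sequence cannot be told apart with 1 probe set.

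In the other lines HY5 kept close to M82. IL-1_1_3 had 9.96, 9.99 and 10.25 (mean 10.07 ± 0.16, n = 3), with arrays 1 and 2 at the upper end of the range of M82 and array 3 above it. IL-4_2 had 10.05, 9.97, 9.97 and 9.95 (9.99 ± 0.04, n = 4), the narrowest spread of the 5 groups, and 1 of its arrays lay above every M82 array. IL-7_2 had 9.74, 9.62, 9.88 and 9.98 (9.80 ± 0.16, n = 4), all inside the range of M82. The differences from M82 were 0.29, 0.20 and 0.02, or 1.22-fold, 1.15-fold and 1.01-fold.

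**Figure D1:**
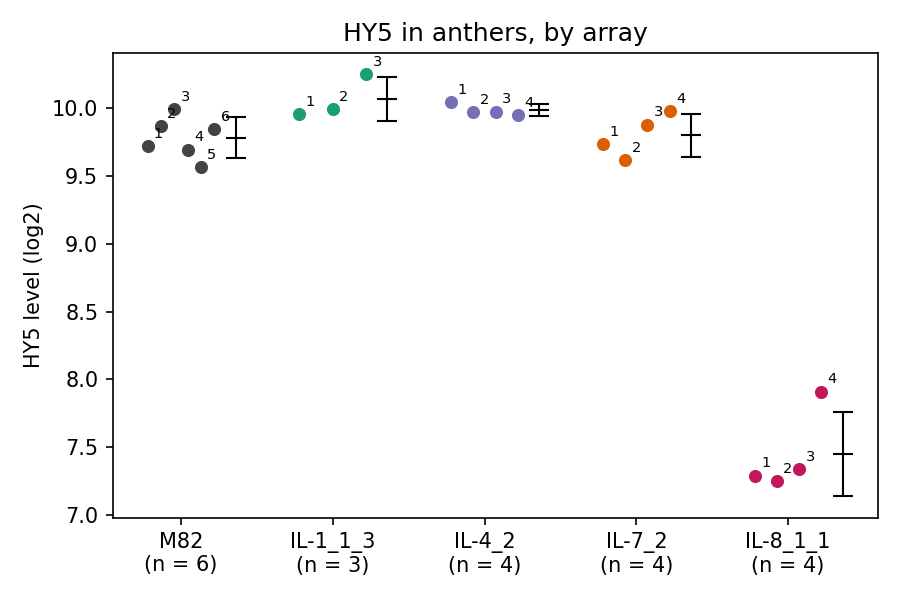
HY5 level (log2 signal, y axis) on each of the 21 arrays by group (x axis); each point is an array and the bar beside the points is the group mean with its SD. The 4 arrays of IL-8_1_1 sit between 7.25 and 7.91 with array 4 highest, and the other 17 between 9.57 and 10.25.

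The order of the group means was IL-1_1_3, IL-4_2, IL-7_2, M82 and IL-8_1_1 from high to low. The steps between neighbours in this order were 0.08, 0.18, 0.02 and 2.34. Set against the pooled SD of each pair, these were 0.761, 1.59, 0.128 and 10.4 SD. The ranges of the first 3 neighbouring pairs overlapped, and those of M82 and IL-8_1_1 did not. Over the 17 arrays outside IL-8_1_1 the whole range of HY5 was 0.69 (mean 9.89 ± 0.17). Within groups HY5 was neither a quiet nor a noisy probe set, with an SD of 0.18 against a median of 0.19 over all probe sets, and 53.0% of them had a larger one.

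Array 4 of IL-8_1_1 carried most of the spread in its group. Without it the mean was 7.29 ± 0.05 (n = 3), the difference from M82 was -2.49, and HY5 was 5.61 times lower. Array 4 lay 0.62 above the mean of arrays 1 to 3. Of the other 46 probe sets called as at least 2-fold lower in IL-8_1_1 than in M82 (limma), array 4 was the highest of the 4 in 12, against 9, 14 and 11 for arrays 1 to 3. Its median deviation from the other 3 arrays in these was 0.07, and 2 of the 46 lay at least as far above them on array 4 as HY5 did. On the same array the 6 genes of the pollen list had the lowest mean of the group (10.17, against 10.43, 11.60 and 10.41 on arrays 1 to 3). The 11.60 of array 2 includes its high Stig1. The 9 genes of photosynthesis and chlorophyll had their highest mean on array 4 (10.96, against 10.76, 10.45 and 10.64), and ltpg1 its highest level (13.22). Their part in the HY5 level of array 4 was not tested.

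Measured against all probe sets, the HY5 difference in IL-8_1_1 was among the largest of that line. There 15 of the 10101 probe sets had a lower difference from M82, and 0.218% had a larger one in either direction. In the other lines the difference of HY5 was ordinary, since 29.6% of probe sets in IL-1_1_3, 30.4% in IL-4_2 and 89.8% in IL-7_2 had a larger one in either direction. The median of all probe sets stood at 0.03, 0.03, 0.04 and 0.01 in IL-1_1_3, IL-4_2, IL-7_2 and IL-8_1_1.

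A complete separation like that of HY5, with all 4 arrays of IL-8_1_1 below the other 17, was found in 68 probe sets (0.673% of those tested), and the opposite in 35 (0.347%). Ranked by the width of the gap, HY5 came 10th of the 68, and 16 had a gap of at least 1. The widest gap was 4.34 in a probe set of PMM, a phosphomannomutase that makes mannose phosphates for glycosylation, followed by 4.01 in the unnamed Les.1484.1.A1_at. On either side of HY5 (1.66) stood Les.5438.1.S1_at at 1.69 and LesAffx.16950.1.S1_at at 1.64. PMM apart, HY5 was the sole one of the first 15 that carries a gene symbol in the platform's annotation, which names 9.0% of the probe sets.

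In IL-8_1_1 no change was called for the other genes of the light signalling list. In the linear model of all 21 arrays (limma, Benjamini-Hochberg adjustment over 10101 probe sets, calls at an adjusted p of 0.05), 145 probe sets (1.44%) were called in this line, 0.624% as rises and 0.812% as falls. None of the 10 measured light signalling genes other than HY5 was among them, none had an unadjusted p under 0.05, and their log2 changes ran from -0.20 to 0.29 (median -0.03). COP1, the ligase that marks HY5 for degradation in Arabidopsis, had a change of 0.08 ± 0.10 (SE). The members of the DDB1 complex were at -0.05 (DDB1, its adaptor), -0.02 (DET1, its partner) and 0.07 (CUL4, its scaffold). The gene csn5, which encodes the catalytic subunit of the COP9 signalosome that trims cullins, was at -0.14. Of the photoreceptors, PHYA was at -0.04 and the cryptochromes CRY1A, Cry1b and CRY2 were at 0.01, -0.09 and 0.29. CRY2 and CO1, a CONSTANS-like B-box gene at -0.20, had the smallest p of the list, with an adjusted p of 0.846 for both. AUREA and HO2, taken as genes of the phytochrome chromophore and added after the symbols were read, both changed by 0.03.

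Among the genes of photosynthesis, a class that HY5 is known to act on in Arabidopsis, no fall was called in IL-8_1_1. Of the 9 measured for photosynthesis and chlorophyll, none was called in either direction (limma, 1.44% of all probe sets were, 0.812% as falls). With shares this small, no call among 9 genes does not show that they were unchanged. None of the 9 had an unadjusted p under 0.05 (6.82% of all probe sets had). Their median change was -0.12, and 8 of 9 were below 0, against 48.6% of all probe sets. The same list had lower medians in the other lines, at -0.73 in IL-1_1_3, -0.24 in IL-4_2 and -0.40 in IL-7_2. The lines were compared with the same 6 M82 arrays, so these medians are not independent of each other. CAB5, a chlorophyll a/b binding protein (-0.35), and PSBP, a subunit of the oxygen-evolving complex (-0.20), had the smallest p of the list in IL-8_1_1, with an adjusted p of 0.846 for both.

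Both genes of the light response lists that were called in IL-8_1_1 rose. These lists go by pathway (light signalling, photosynthesis and chlorophyll, carotenoid, flavonoid and phenylpropanoid). They hold only genes found by symbol, and symbols cover 9.0% of the probe sets. Whether their members respond to light in anthers was not tested. CCD1A, a carotenoid cleavage dioxygenase that makes fragrant apocarotenoids, was 8.97 to 9.25 on the M82 arrays and 9.39, 9.67, 9.38 and 9.53 in IL-8_1_1. All 4 arrays of IL-8_1_1 lay above each of the other 17. Its log2 change was 0.42 ± 0.08 (SE, limma adjusted p = 0.00422), and it was also higher in IL-8_1_1 than in IL-4_2 (by 0.39, adjusted p = 0.0113) and IL-7_2 (by 0.61, adjusted p = 9.16e-05), while the difference of 0.34 from IL-1_1_3 did not pass (adjusted p = 0.0787). THT7-8, a tyramine hydroxycinnamoyl transferase that makes phenolic amides for the cell wall, was 4.83 to 5.27 in M82 and 5.45, 5.92, 5.74 and 5.33 in IL-8_1_1, without overlap. Its change was 0.48 ± 0.11 (adjusted p = 0.0335), and this call ended without any 1 of M82 arrays 1, 2, 3 and 5 and IL-8_1_1 arrays 2 and 3 (adjusted p up to 0.192). THT7-8 was higher than in IL-7_2 by 0.50 (adjusted p = 0.0219), and IL-1_1_3 had nearly the same THT7-8 level (difference 0.05 ± 0.13 SE, adjusted p = 0.962). Such comparisons between lines reuse the IL-8_1_1 arrays that gave the calls, so they are not independent of them. CCD1A and THT7-8 were the 2 of 38 light response genes whose IL-8_1_1 arrays did not overlap with M82, where 2.61% of all probe sets did not.

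The chalcone synthases, which open the flavonoid pathway and whose promoter is a classic HY5 target in Arabidopsis, differed from each other. CHS2 was 13.31 to 13.79 in M82 and 13.13, 12.52, 13.31 and 13.07 in IL-8_1_1, with array 2 lowest and array 3 overlapping M82. Its change of -0.63 ± 0.16 did not pass (adjusted p = 0.0765). It passed after cyclic loess scaling (adjusted p = 0.044) and without array 3 of M82, array 3 of IL-4_2 or array 2 of IL-7_2 (the lowest 0.0311), and without IL-8_1_1 array 2 it was -0.46 (0.42). CHS2 was also lower than in M82 in the other 3 lines, by values not called (-0.39 in IL-1_1_3, -0.46 in IL-4_2 and -0.39 in IL-7_2). A part of HY5 in these differences was not tested. CHS1 had a change of -0.02 in IL-8_1_1. Array signals do not allow their levels to be compared with each other, and cross-hybridization between such close relatives was not tested.

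**Figure D2:**
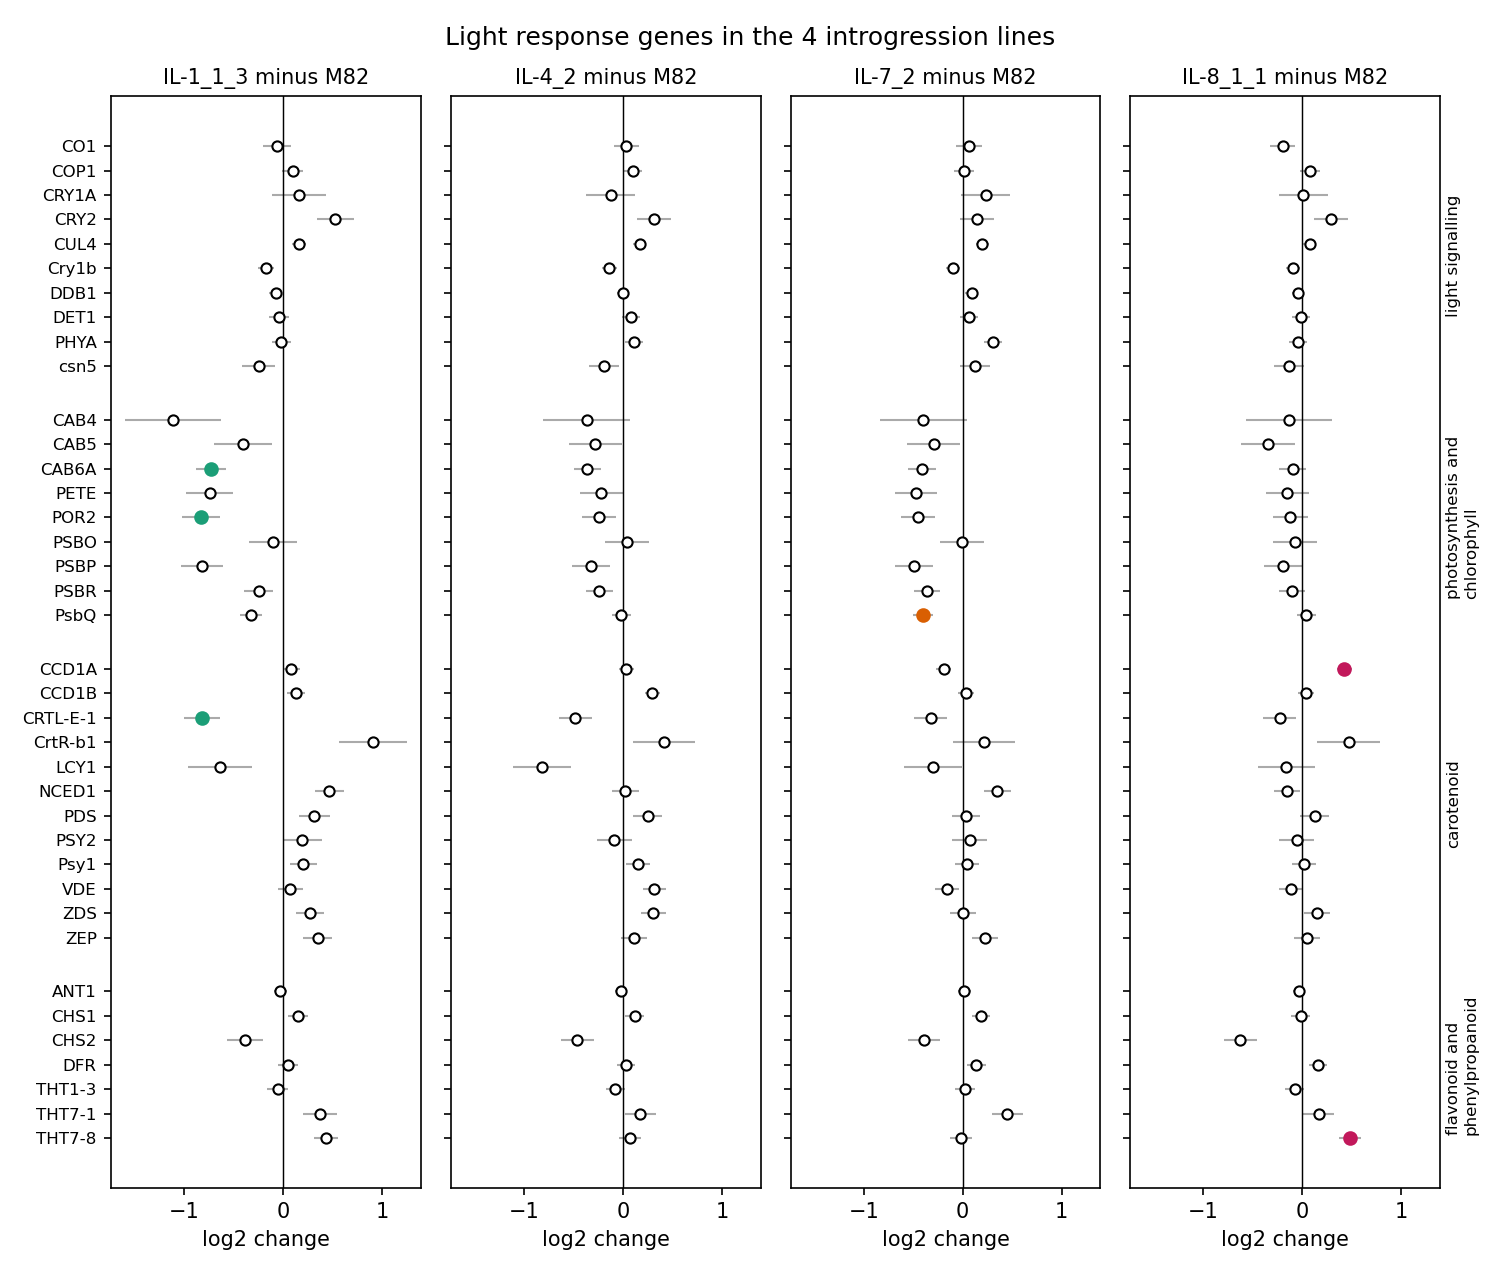
Log2 change against M82 (x axis) of each measured light response gene in the 4 lines (panels), grouped by list, with called genes marked. In IL-8_1_1 the 10 light signalling genes other than HY5 lie between -0.20 and 0.29, and CCD1A and THT7-8 are the called genes.

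Taking the 4 light response lists as a whole (38 genes without HY5), 2 rose and none fell in IL-8_1_1. Over all probe sets 1.44% were called in this line (limma), 0.624% as rises and 0.812% as falls. Of the 38 genes, 3 were at an unadjusted p under 0.05 (6.82% of all probe sets were). Cyclic loess scaling added CHS2 as a fall, for a split of 2 rises and 1 fall. Their median change was -0.04 against 0.01 for all probe sets, and 23 of 38 were below 0. Leaving out array 4, the array with the highest HY5 of the line, also gave 2 rises and no fall. In the other lines the counts were as follows. IL-1_1_3 had 3 falls and no rise (1.97% of all probe sets called, 1.03% as falls and 0.941% as rises), with 16 of the 38 genes at an unadjusted p under 0.05 (20.1% of all probe sets). The 3 falls were CAB6A, a light-harvesting protein (-0.73 ± 0.15), POR2, which reduces protochlorophyllide (-0.83 ± 0.19), and CRTL-E-1, a lycopene epsilon-cyclase (-0.83 ± 0.18), with limma adjusted p of 0.0232, 0.0335 and 0.0284. The 3 calls in IL-1_1_3 became 0 without M82 array 6 or IL-1_1_3 array 2, 1 without M82 array 5 or IL-1_1_3 array 3, and 5 without IL-7_2 array 2 or IL-8_1_1 array 2. IL-4_2 had none (limma, 1.83% of all probe sets, 0.95% as falls and 0.881% as rises), with 8 at an unadjusted p under 0.05 (12.5% of all probe sets), and CCD1B was called as a rise without M82 array 3 or IL-7_2 array 2. IL-7_2 had 1 fall (2.84% of all probe sets, 1.14% as falls and 1.7% as rises), PsbQ of photosystem II (-0.40 ± 0.10, adjusted p = 0.0301), with 12 at an unadjusted p under 0.05 (13.7% of all probe sets). That count of 1 became 0 without any 1 of M82 arrays 2, 5 and 6 and IL-7_2 arrays 1 and 4, and 2 without IL-1_1_3 array 2 or IL-7_2 array 2. Over all probe sets the split of rises and falls was 95 and 104 in IL-1_1_3 and 172 and 115 in IL-7_2, and cyclic loess scaling made it 58 and 115, and 93 and 135.

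None of the 5 other bZIP genes found by symbol was called in IL-8_1_1 (limma, 1.44% of all probe sets were), and their median change was 0.08. Symbols cover 9.0% of the probe sets, and bZIP genes among the rest were not searched for. By the probe set of highest mean per gene, the 1 with an unadjusted p under 0.05 was vsf-1, a factor first described for a vascular promoter (0.19, adjusted p = 0.59). TGAS118 (-0.70, adjusted p = 0.728) had matched the list by the pattern of its name alone and was left out of this count after its values were seen. The G-box factors GBF4 and GBF12, whose target sequence overlaps that of HY5, were at 0.08 and -0.07, bZIP1 was at 0.17 and AREB1, a factor of the abscisic acid response, at 0.08. Another probe set of GBF4 was at 0.18, also with an unadjusted p under 0.05 (limma, 0.047, adjusted p = 0.724).

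To find which probe sets were most like HY5, each of the other 10100 was correlated with it over the 21 arrays. HY5 falls into a low cluster of 4 arrays and a high one of 17, so a high r chiefly repeats that split. These values are descriptions of shared arrays, and no p belongs to them. The most similar was Les.1866.1.A1_at (r = 0.985), with 6.83, 6.72, 6.79 and 7.13 in IL-8_1_1 and 9.19 to 9.56 in M82. Like HY5 it was highest on array 4 within IL-8_1_1 and on average higher in IL-1_1_3 and IL-4_2 than in M82. Over the 17 other arrays its r with HY5 was 0.44, and 0.03 with the group means taken out. LesAffx.53629.3.S1_at (0.977), Les.1484.1.A1_at (0.977), Les.2227.1.A1_at (0.975) and Les.937.1.S1_at (0.972) followed. Over the 17 arrays they were at -0.01, -0.27, 0.24 and 0.44, and with the group means taken out at 0.06, 0.16, -0.44 and 0.35. None of these has a gene name in the platform table, and they differed from M82 in IL-8_1_1 by -1.15 to -4.62 where HY5 differed by -2.34. In all, 26 probe sets had r of at least 0.9 and 3 of at most -0.9.

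**Figure D3:**
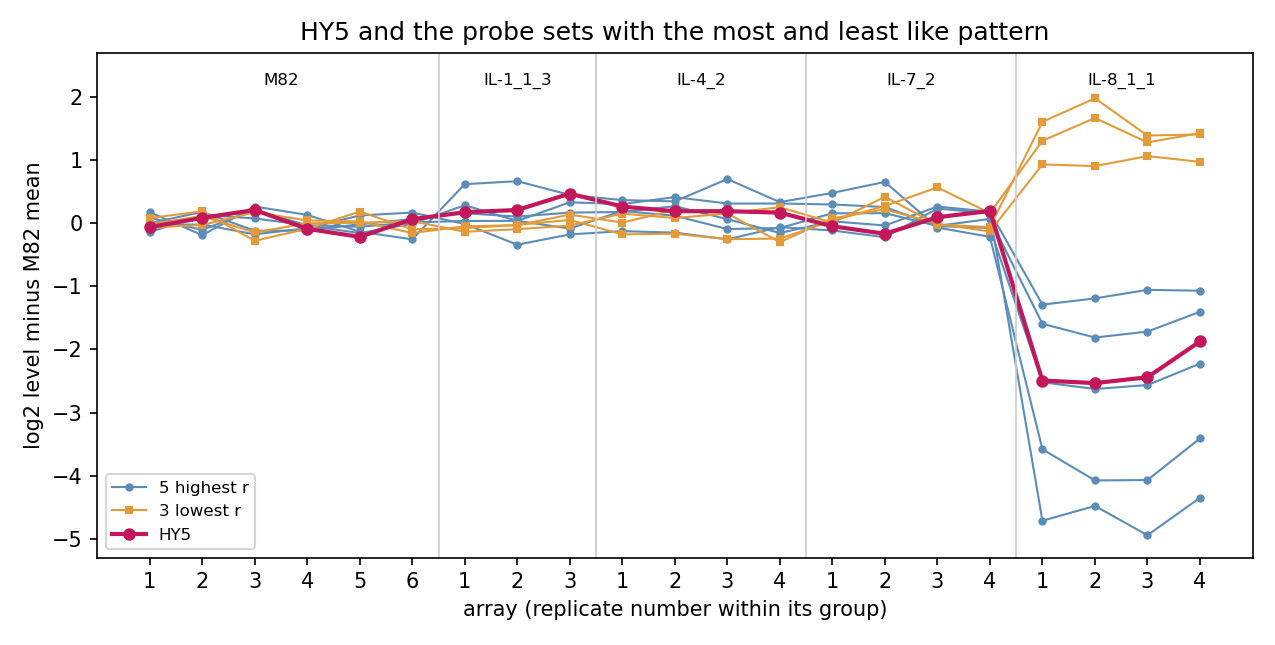
Log2 level minus the M82 mean (y axis) on each of the 21 arrays (x axis, by group and replicate number) of HY5, of the 5 probe sets with the highest correlation to it and of the 3 with the lowest. In IL-8_1_1 HY5 fell by 2.34 on average and the 3 of lowest correlation were higher than in M82, by up to 1.60.

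Among genes with a symbol, a probe set of PMM came closest to HY5 (r = 0.945), at 3.78 to 3.89 on the IL-8_1_1 arrays against 8.23 to 10.64 on the other 17. The other PMM probe sets had r of 0.799 and -0.03, so the gene as a whole was not settled. Klc-I2I (0.928), ail (0.869), PRO2, a gene of proline synthesis (0.826), and E8, a ripening gene of the ethylene response (0.723), followed. The ail probe sets disagreed too (0.869, 0.762 and -0.631), and the other one of Klc-I2I was at 0.570. Opposite to HY5 ran LesAffx.30948.1.S1_at (-0.958), LesAffx.68193.1.S1_at (-0.949) and LesAffx.470.1.S1_at (-0.940), and of the named genes cevi19 (-0.839), the invertase gene Wiv-1 (-0.781) and SSTLE1 (-0.776). No gene of the light response lists or of the bZIP list was among the probe sets named here by their likeness over the 21 arrays. CCD1A of the carotenoid list, at -0.760, came close to SSTLE1, while THT7-8 was at -0.560 and NCED1 at 0.520.

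With the group means taken out, what remains is how HY5 varied between arrays of 1 group. Of 10100 probe sets, 11 had a within-group r of at least 0.7 and 2 of at most -0.7 over the 21 arrays, and the median was 0.04. The highest were t19-8 (0.794), ERABP1, an auxin-binding protein of the endoplasmic reticulum (0.774), and Les.4035.1.S1_at (0.769). The next named gene was CNX61.0 (0.693). In IL-8_1_1 t19-8 was 11.03, 10.77, 10.76 and 11.65, highest on array 4 as HY5 was, and ERABP1 was 9.82, 9.54, 9.63 and 10.03. Over the 17 arrays outside IL-8_1_1 their within-group r with HY5 was 0.640 and 0.744. Without IL-8_1_1 array 4 the within-group r of t19-8 was 0.607. The lowest was Les.1714.1.A1_at (-0.905, and -0.801 over the 17 arrays), a dim probe set with an SD of 0.07 within groups, at 4.16 on array 4 of IL-8_1_1 and between 4.36 and 4.58 on the other arrays. Les.2729.2.S1_at (-0.702) and Les.5071.1.S1_a_at (-0.697) came next.

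**Figure D4:**
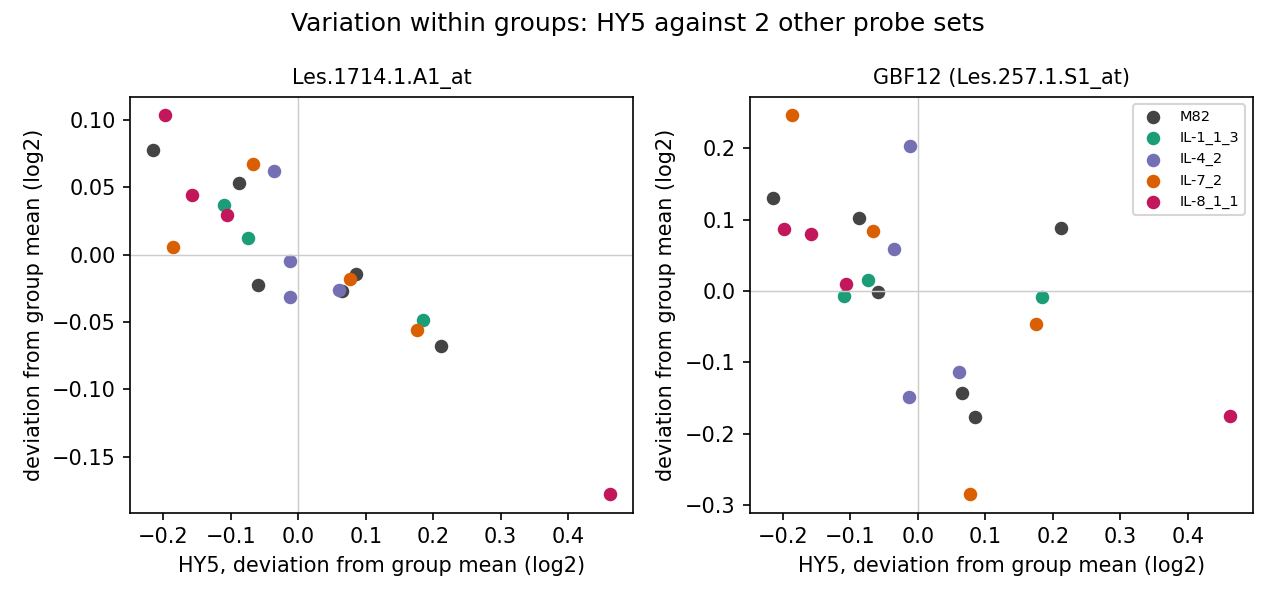
Deviation from the group mean (log2) of HY5 (x axis) against that of Les.1714.1.A1_at and of GBF12 (y axes), the probe set and the named gene with the lowest within-group correlation to it, with 1 point per array coloured by group. Array 4 of IL-8_1_1 is the point furthest right, 0.46 above its group mean.

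Of the named genes, GBF12 (-0.562), the MAP kinase gene MPK3 (-0.557) and LIN7, an invertase of anthers (-0.542), ran most opposite to HY5 within groups. GBF12 is one of the bZIP factors of the G-box, and its within-group r was -0.484 over the 17 arrays. Over the 38 light response genes the within-group r with HY5 ranged from -0.49 (COP1) to 0.66 (CHS1), with a median of -0.0017. The COP1 value was -0.32 over the 17 arrays, and that of CHS1 0.57. Outside these 38, AUREA had a within-group r of 0.508 over the 21 arrays and 0.783 over the 17, and HO2 one of 0.289 and 0.305. The first axis of the within-group variation, which held 59.2% of it and on which array 2 of IL-7_2 had the highest score, had an r of -0.234 with the HY5 deviations.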

How the data were processed

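Biotin-labelled total RNA of 21 anther samples was measured on Affymetrix tomato arrays. The deposited values were made with the affy package, per the submitters' processing notes; its version is not given in the sources used here, and neither is the normalization. The log2 scale of the deposited values was read from their range (3.39 to 14.69), and array medians lay between 9.47 and 9.54. The number of arrays limits the precision. Of 10209 probe sets, 108 controls were left out and 63 reporter probe sets were kept. Groups came from the titles. A model of 5 groups (lmFit and eBayes, limma 3.58.1 in R 4.3.3, 16 residual degrees of freedom) was tested on simulated data before use. The simulated noise was independent between probe sets, unlike that of the arrays, so that check does not vouch for single calls. The probe set with the highest mean stood for a gene. HY5, the gene lists and the tests were chosen with earlier results of these data known. Named genes were the called members, the 2 members per list with the smallest p in IL-8_1_1, and the probe sets and symbols most and least correlated with HY5. Alternatives were quantile and cyclic loess scaling, each array left out, the dimmest 0.25 of probe sets left out, the replicate number as a block, each line with M82 alone, the unmoderated test and every probe set of a gene. The labels do not say whether replicate numbers pair the arrays. Of 36 same-number pairs, 13 correlated above 0.1, and the median r was -0.07, against 0.02 for different numbers. Genes of the chromosome of HY5 were not analysed here, and no sequence was used.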

Additional observations from a re-analysis of the deposited data

Results flagged for a closer look

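An array was singled out where its gap to the nearest array of its group was too large a share of the group's range (Dixon's 95% value, groups of 4 or more). Chance alone marks about 1 in 20 groups, which is 6.6 of the 132 groups examined over 33 probe sets, and 9 were marked. HY5 itself was marked in IL-8_1_1, where array 4 stood at 7.91 and the next array at 7.34. Among the light response genes, CRTL-E-1 was marked in IL-8_1_1, with array 2 at 6.14 below 6.40. The other marked arrays belonged to probe sets named for their likeness to HY5. In IL-4_2 these were array 2 of Les.1866.1.A1_at (9.77, next 9.66), array 3 of Les.2227.1.A1_at (9.24, next 8.90), array 3 of the PMM probe set Les.500.2.A1_s_at (8.60, next 9.46) and array 4 of LesAffx.68193.1.S1_at (9.03, next 9.41). In M82 array 1 stood apart in ail (9.80, the highest) and in CNX61.0 (13.15, next 12.96), and in IL-7_2 array 2 in LesAffx.30948.1.S1_at (8.76, next 8.35).

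Light response genes called against M82 in a line were also compared between that line and the others in the same model (limma, 18 comparisons of lines), and 5 differences passed. The genes and lines were chosen by calls on these same arrays. That choice favours a pass, so the 5 differences are no independent support for the calls. CCD1A was higher in IL-8_1_1 than in IL-4_2 (adjusted p = 0.0113) and than in IL-7_2 (adjusted p = 9.16e-05), in 4 of 4 arrays against each. THT7-8 was higher in IL-8_1_1 than in IL-7_2 (adjusted p = 0.0219). PsbQ was lower in IL-7_2 than in IL-4_2 (by 0.39, adjusted p = 0.0457) and than in IL-8_1_1 (by 0.45, adjusted p = 0.0200).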

How the results depend on the processing

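The HY5 differences moved by less than 1 SD under both other scalings and without any array. Leaving out each array in turn gave 0.19 to 0.34 in IL-1_1_3, 0.16 to 0.25 in IL-4_2, -0.04 to 0.08 in IL-7_2 and -2.49 to -2.27 in IL-8_1_1, and cyclic loess scaling turned the near-zero value of IL-7_2 to -0.05. Counts of called light response genes ran from 0 to 5, 0 to 1, 0 to 2 and 1 to 3 in the same order. With replicate numbers as a block, the counts were 0 in IL-1_1_3, 0 in IL-7_2 and 1 in IL-8_1_1 (CCD1A). Whether the numbers pair the arrays is not stated (correlations of same-number arrays from -0.806 to 0.698). Each line fitted with M82 alone gave 0, 1 (LCY1, lower), 0 and 1. Leaving out the dimmest 0.25 of probe sets removed THT7-8 and left 1 call in IL-8_1_1. Counting every probe set gave 2 in IL-7_2, since Les.44.1.S1_at of Psy1 was called as a rise (0.65, adjusted p = 0.0081) where the brighter Les.3171.3.S1_a_at of Psy1 was at 0.05. CCD1A kept its call without any array (adjusted p from 0.00186 to 0.0285). The calls of CAB6A, POR2, CRTL-E-1 and PsbQ each ended without some array, in 2, 6, 5 and 6 of 21 cases. The count of genes on the chromosome of HY5, planned for IL-8_1_1, was not run. The cause of these shifts was not tested. Dim genes near the lower end of the signal, such as Les.1714.1.A1_at, leave little room for a change to be seen.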

Other observations

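The array also carries control probe sets for the phytochrome gene PhyB2, a red light receptor that acts upstream of HY5, and these were left out of the tests. The one at the 3′ end had a mean log2 level of 7.02 ± 0.13 (SD, n = 6) on the M82 arrays. It was 7.32 ± 0.17 for IL-1_1_3 (n = 3) and 6.85 ± 0.12 for IL-4_2 (n = 4). For IL-7_2 it was 7.18 ± 0.22 (n = 4), and for IL-8_1_1, the line with low HY5, 6.84 ± 0.14 (n = 4). The probe sets at the 5′ end and in the middle had group means of 4.19 to 4.43 and of 3.89 to 4.07, near the lower end of the signal.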
